A study of Mus musculus with 6 samples.

Results

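The mitochondrially encoded transcripts are the 37 gene rows whose symbol starts with mt-, of 52542 gene rows in the count tables. They comprise 2 ribosomal RNAs, 13 messenger RNAs for subunits of the respiratory chain and ATP synthase, and 22 transfer RNAs. They were followed in 2208 of 2304 wells, those that held at least 500 UMIs (unique molecular identifiers, which mark single captured RNA molecules) outside the spike-in controls. No upper limit was placed on the mitochondrial share, so that wells rich in these transcripts stayed in. The 37 rows held 808479 of 8310638 UMIs in these wells, or 9.73%.

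The wells are single cells from mouse islets of Langerhans, profiled with MARS-seq, a plate method that captures the 3' ends of polyadenylated RNA. Male mice carrying Sox9-CreER and tdTomato, in which cells with an active Sox9 gene (a duct and progenitor gene) at the time of induction and their progeny are marked by the red protein, received tamoxifen (8 mg) from 10 weeks of age for 2 weeks. At 12 weeks they had a partial pancreatectomy (ppx) or a sham operation, and islets were taken 4 weeks later. There were 3 sham plates and 3 ppx plates of 384 wells each. Sham plate 1 and ppx plate 1 held tomato-positive cells, sham plate 3 and ppx plates 2 and 3 held tomato-negative cells, and sham plate 2 was mixed. The labels do not tie plates to animals, so p-values measure only the spread between plates, which may be technical, and the sort gates also differ between plates. Over all 384 wells a plate held 1250861 to 1508513 UMIs, and 349 to 377 wells of each plate were used.

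Mitochondrial DNA is a compact circle that is transcribed from both strands into long precursors. Transfer RNAs lie between most of the other genes, and cutting them out releases the ribosomal and messenger RNAs, most of which then receive a short A tail. The messenger RNAs are translated on ribosomes built from mt-Rnr1 and mt-Rnr2 RNA with imported proteins. Their products sit beside nuclear-encoded subunits in complexes I, III and IV and in ATP synthase, which make the ATP that couples glucose metabolism to insulin release in beta cells.

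Wells were grouped by the hormone transcripts they held, as a share of non-mitochondrial UMIs: insulin (Ins1 and Ins2) at 3% or more, somatostatin (Sst) at 1%, glucagon (Gcg) at 2% and pancreatic polypeptide (Ppy) at 3%. Ppy was used only in wells low in the other hormones. Wells named insulin-only, somatostatin-only or glucagon-only may therefore also hold Ppy at 3% or more. Of the 2208 wells, 1051 were insulin-only, 563 somatostatin-only, 155 glucagon-only, 61 Ppy wells, 126 hormone-low, and the rest held more than 1 of insulin, somatostatin and glucagon. Such wells may hold joined cells, which the series sets out to study, and no wells were removed as doublets. The groups were checked against marker lists that include their hormones. In the gene tests described later, 11 of 11 beta markers were lower and 7 of 7 tested alpha markers higher in glucagon-only than in insulin-only wells. In somatostatin-only wells 10 of 11 beta markers were lower than in insulin-only wells. Of 4 tested delta markers 3 were higher and 1 was lower, and 2 of 2 tested acinar and 3 of 3 tested gamma markers were also higher. The part of these other cell types in the results was not tested.

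Capture at the 3' end decides which part of a transcript is read. The 3' ends of the most abundant ribosomal and messenger RNA rows are printed with that of mt-Nd6, a messenger RNA row with no UMI, as the last 60 bases of the GENCODE M21 transcripts (GRCm38), 5' to 3', with runs of 4 or more A in capitals. They lie at chrM:2616-2675 (plus strand), chrM:15229-15288 (plus) and chrM:13552-13611 (minus).
mt-Rnr2: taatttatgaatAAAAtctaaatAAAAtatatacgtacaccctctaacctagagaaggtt
mt-Cytb: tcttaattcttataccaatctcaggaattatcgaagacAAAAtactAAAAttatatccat
mt-Nd6: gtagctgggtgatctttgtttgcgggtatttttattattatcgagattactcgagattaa

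Over its whole length mt-Rnr2 held 26 such A runs and mt-Cytb held 5, while mt-Nd6 held 0. The number of runs did not order the rows by count, since mt-Nd4 held 14 runs and fewer UMIs than mt-Cytb, and mt-Tt held 0 runs and 8306 UMIs. Whether priming inside transcripts contributed to the counts was not tested.

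Counts were spread very unevenly over the 37 rows. Of these, 10 rows held at least 1000 UMIs, 8 held at least 100 but under 1000, 9 held 1 to 99, and 10 were at 0. The ribosomal RNAs took 67.9% of the mitochondrial UMIs (63.4% to 72.0% over the 6 plates): mt-Rnr2, the large-subunit RNA, 54.7% and mt-Rnr1, the small-subunit RNA, 13.2%. Complex I messenger RNAs took 19.9%, the single complex III row mt-Cytb 9.43%, complex IV 1.30% and ATP synthase 0.0772%. The 22 transfer RNA rows took 1.40%.

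Within complex I, the proton-pumping NADH dehydrogenase, mt-Nd4 held 67659 UMIs, mt-Nd1 53339, mt-Nd2 23997 and mt-Nd5 15778. The other complex I rows were near or at 0, with 55 UMIs for mt-Nd3, 16 for mt-Nd4l and 0 for mt-Nd6. In complex IV, cytochrome c oxidase, mt-Co1 held 9493 UMIs, mt-Co2 745 and mt-Co3 280. The ATP synthase rows mt-Atp6 and mt-Atp8 held 619 and 5.

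Per kilobase of annotated length, mt-Rnr2 stood at 279496 UMIs, mt-Rnr1 at 111852, mt-Cytb at 66609, mt-Nd1 at 55736 and mt-Nd4 at 49099. On the same scale mt-Nd5 stood at 8650 and mt-Co1 at 6144. For a method that reads one end of a molecule, length does not scale the count, so these values rank the rows on the length scale only.

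Nearly all of the signal came from the plus strand of the annotation. The 9 minus-strand rows, mt-Nd6 and 8 transfer RNAs, held 614 UMIs in all, 0.0759% of the mitochondrial total, and 5 of the 9 were at 0. Among transfer RNAs, mt-Tt (threonine) stood apart with 8306 UMIs, against 1125 for mt-Tl1 (leucine) and 975 for mt-Ti (isoleucine), and 9 transfer RNA rows were at 0. The mt-Tt row starts at the base after mt-Cytb ends and held 10.9% of the mt-Cytb count. The same ratio to the gene just upstream was 1.83% for mt-Ti after mt-Nd1, 0.913% for mt-Tw after mt-Nd2 and 0.254% for mt-Tl1 after mt-Rnr2. Reads that cross such a junction cannot be told apart from reads of the transfer RNA in a count table.

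Several messenger RNA rows with low counts had a copy of their sequence on chromosome 1, though not all of them. The GENCODE annotation lists unprocessed pseudogenes there, on the minus strand, that match the mitochondrial genes closely. Gm28437, at chr1:24613189-24613971, matched mt-Co3 over 783 of 783 aligned bases. Gm29216, at chr1:24615706-24616197, matched the 3' part of mt-Co1 over 483 aligned bases with 1 difference, A1066T, counted from the first base of mt-Co1 with its base given first. A stretch of 60 bases of each pair is printed with that difference in capitals.
mt-Co3: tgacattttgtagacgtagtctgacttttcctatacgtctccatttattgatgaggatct
Gm28437: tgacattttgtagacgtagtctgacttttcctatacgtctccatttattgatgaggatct
mt-Co1: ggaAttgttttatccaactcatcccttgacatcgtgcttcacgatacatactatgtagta
Gm29216: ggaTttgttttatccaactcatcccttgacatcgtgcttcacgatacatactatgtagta

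A read from the shared stretch has no base that assigns it to mt-Co3 or to Gm28437, so the 2 rows cannot be told apart by sequence. Gm28437 was listed at 6014 UMIs and mt-Co3 at 280. Gm29216 was listed at 3374 UMIs against 9493 for mt-Co1. The copies of the 3' ends of mt-Atp6, mt-Co2, mt-Nd3 and mt-Nd4l (Gm10925, Gm28661, Gm28438 and Gm10222) each held 0 UMIs. For mt-Nd6 (0 UMIs) and mt-Atp8 (5 UMIs) no copy was found. Of the 15 messenger and ribosomal RNA rows, the 6 whose 3' end has a copy of at least 99% identity elsewhere in the annotated transcripts held 16 to 9493 UMIs (median 449.5), and the 9 others held 0 to 442163 (median 53339). How the authors treated reads with more than 1 matching place is not given in the sources used here, and its part in these counts was not tested.

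Gm28437 also varied widely from plate to plate. For each 1000 mt-Cytb UMIs, the 3 sham plates held 194.8, 16.4 and 170 Gm28437 UMIs and the 3 ppx plates held 67.9, 42.0 and 17.6, an 11.8-fold range that did not follow the operation or the tomato status. On the same scale mt-Co1 held 119.9 to 128.3, a 1.07-fold range, Gm29216 37.0 to 51.6, and mt-Atp6 4.90 to 15 with ppx plate 2 highest. The hormone groups of a plate lay close together on some plates and apart on others. On sham plate 1 it was 177.6 in insulin-only, 195.8 in somatostatin-only and 208.3 in glucagon-only wells, and on sham plate 2 it was 17.0, 14.8 and 16.8. On ppx plate 2 it ran from 17.9 in somatostatin-only (9 wells, 2 Gm28437 UMIs) to 50.4 in glucagon-only wells (17 wells, 23 UMIs). On ppx plate 3 it ran from 6.71 in glucagon-only (8 wells, 1 UMI) to 30.9 in hormone-low wells (21 wells, 6 UMIs). Values from so few UMIs are imprecise, and whether these groups differ was not tested. The mitochondrial share counts mt- rows only and holds neither copy.

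**Figure D1:**
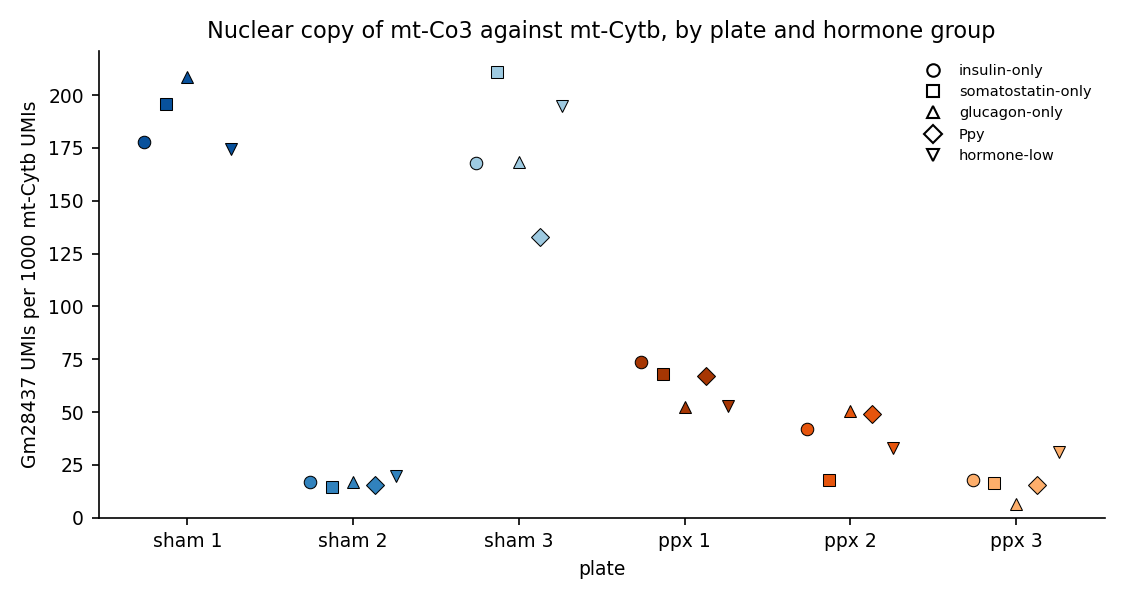
Gm28437 UMIs per 1000 mt-Cytb UMIs (vertical axis) on each plate, with 1 marker for each hormone-defined group with at least 5 wells. Over all wells of a plate the value runs from 16.4 on sham plate 2 to 194.8 on sham plate 1.

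The mitochondrial share of a well had a median of 9.98% over the 2208 wells. The 5th and 95th percentiles were 3.40% and 19.5%, and the range was 0.766% to 91.3%. Plate medians were 10.5%, 8.75% and 8.29% for sham and 11.9%, 9.42% and 11.1% for ppx. The tomato-positive plates held more somatostatin-only wells (219 and 241) than the other 4 plates (9 to 63), so comparisons are given within a hormone group.

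The share differed between hormone groups in the same order on each plate for the 3 largest single-hormone groups. In insulin-only wells the plate medians were 9.18%, 8.45% and 8.37% for sham and 8.26%, 9.62% and 11.1% for ppx, with a mean of 9.16% ± 1.09 (SD, n = 6 plates). Somatostatin-only wells were higher at 11.8% ± 1.06 (SD, n = 6 plates, range 10.9% to 13.7%). Glucagon-only wells were lower at 5.92% ± 0.587 (SD, n = 6 plates, range 5.20% to 6.82%). The glucagon-only range lay below the other 2, while the insulin-only and somatostatin-only ranges met, since insulin-only wells of ppx plate 3 (11.1%) stood above somatostatin-only wells of ppx plate 2 (10.9%) and sham plate 3 (11.0%). On the same plate, somatostatin-only wells were higher than insulin-only wells on 6 of 6 plates.

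Ppy wells lay with glucagon-only wells at 5.66% ± 0.439 (SD, n = 5 plates), and the 2 groups did not differ beyond their spread (mean difference 0.376 ± 0.906 percentage points, SD). Hormone-low wells were the highest group and the most variable, at 14% ± 2.92 (SD, n = 6 plates), above insulin-only wells on 6 of 6 plates and above somatostatin-only wells on 4 of 6. Wells with insulin and somatostatin together stood at 9.70% ± 1.5 (SD, n = 6 plates), between the insulin-only and somatostatin-only means.

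**Figure D2:**
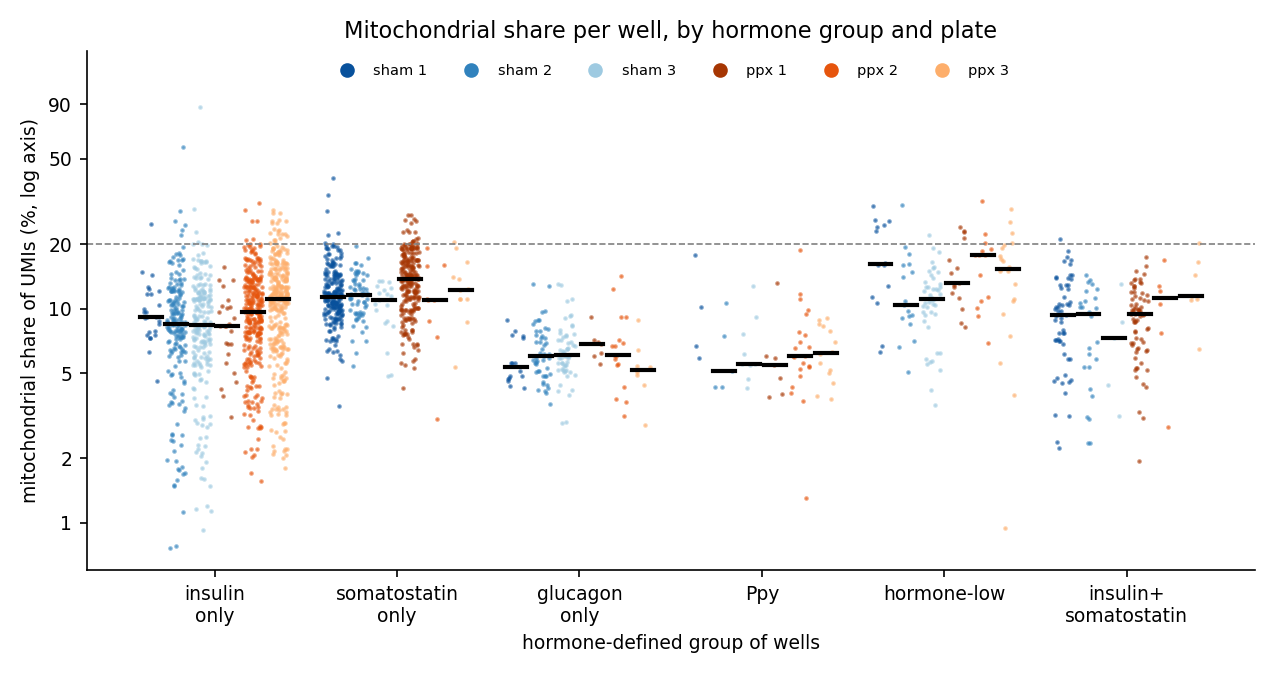
Mitochondrial share of UMIs per well (vertical log axis, %) by hormone-defined group; each dot is a well, coloured by plate, and bars are plate medians for groups with at least 5 wells on the plate. Medians run from 5.20% to 6.82% in glucagon-only, from 8.26% to 11.1% in insulin-only and from 10.9% to 13.7% in somatostatin-only wells, and the dashed line marks 20%.

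A share can be high through more mitochondrial or fewer other molecules, and the groups differed in depth. Median UMIs per well were 4212 in insulin-only, 1563 in somatostatin-only, 3457 in glucagon-only and 987 in hormone-low wells. In numbers of mitochondrial UMIs per well the order turned: the insulin-only median was above the somatostatin-only median on 6 of 6 plates, by a mean of 1.10 on the log2 scale. Among wells of like depth the share still differed, since wells of at least 2000 but under 4000 UMIs had a mean of plate medians of 11.6% in somatostatin-only (5 plates), 8.75% in insulin-only (5 plates) and 6.01% in glucagon-only wells (4 plates). The plates behind these means were not all the same. On shared plates, somatostatin-only and insulin-only medians were 10.5% and 9.48% (sham plate 2) and 11.9% and 8.77% (sham plate 3). They were 13.2% and 4.99% on ppx plate 1 (7 insulin-only wells) and 11.6% and 11.1% on ppx plate 3. Among wells of at least 4000 but under 8000 UMIs the somatostatin-only value was 9.36% on 2 plates and the insulin-only value 9.23% on 6.

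Within a group, shallow wells tended to hold a larger share, though not in every group. In somatostatin-only wells Spearman's rho between the share and the non-mitochondrial UMIs was -0.286, -0.243 and -0.272 on the plates with at least 20 such wells (219, 63 and 241 wells). In insulin-only wells it ran from -0.308 on sham plate 3 to 0.301 on ppx plate 1. The share holds the non-mitochondrial UMIs in its denominator, so some inverse relation is built in. The counts themselves rose together, with rho between mitochondrial and other UMIs of 0.367 to 0.786 in insulin-only wells over the 6 plates.

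The makeup of the mitochondrial RNA also differed between hormone groups. In somatostatin-only wells the ribosomal RNAs took 77.9% ± 1.24 of the mitochondrial UMIs (SD, n = 6 plates, range 76.0% to 79.5%), in insulin-only wells 65.0% ± 2.77 (62.1% to 69.9%) and in glucagon-only wells 59.7% ± 2.83 (57.0% to 64.6%). The somatostatin-only range overlapped neither of the others, while the insulin-only and glucagon-only ranges overlapped. Hormone-low wells stood at 75.6% ± 2.47 (SD, n = 6 plates) and Ppy wells at 65.4% ± 1.88 (SD, n = 5 plates).

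Set against all UMIs of the group, ribosomal and messenger RNAs went opposite ways. The 2 ribosomal RNAs took 8.69%, 8.96% and 7.80% (sham) and 10.4%, 8.98% and 8.54% (ppx) of all UMIs of somatostatin-only wells. In insulin-only wells the values were 6.40%, 5.45% and 5.33% for sham and 5.66%, 6.69% and 8.06% for ppx. Somatostatin-only wells were higher on 6 of 6 plates by a mean of 2.64 ± 1.43 percentage points (SD), with an overlap between sham plate 3 somatostatin-only wells and ppx plate 3 insulin-only wells. The 13 messenger RNA rows took 2.41% ± 0.275 of all UMIs in somatostatin-only wells and 3.19% ± 0.184 in insulin-only wells (SD, n = 6 plates), lower on 6 of 6 plates and with no overlap.

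Glucagon-only wells were lower than insulin-only wells in both kinds, with 3.63% ± 0.233 against 6.27% ± 1.03 of all UMIs for ribosomal RNA and 2.36% ± 0.276 against 3.19% ± 0.184 for messenger RNA (SD, n = 6 plates). Their messenger RNA level lay beside that of somatostatin-only wells, with a mean difference of -0.054 ± 0.287 percentage points (SD, n = 6 plates). When the 2 ribosomal RNA rows were left out, the median share of somatostatin-only wells was 0.677 percentage points below that of insulin-only wells in place of 2.63 above (a difference of -0.677), so the higher share in somatostatin-only wells rested on mt-Rnr1 and mt-Rnr2.

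**Figure D3:**
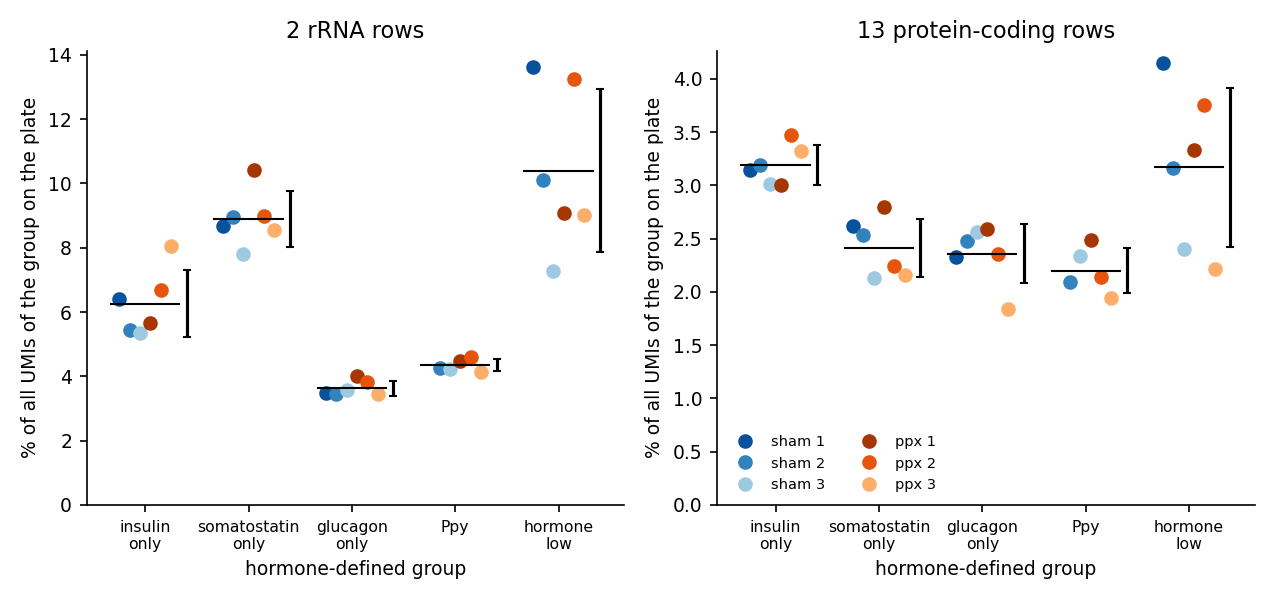
The 2 ribosomal RNA rows (left) and the 13 messenger RNA rows (right) as a percentage of all UMIs of each hormone-defined group, with 1 point per plate, a line at the mean and a bar of 1 SD beside it. Somatostatin-only wells lie at 8.90% for ribosomal and 2.41% for messenger RNA, and insulin-only wells at 6.27% and 3.19%.

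Depth moved with this difference too, and wells of like depth were compared on the plates with at least 5 wells of both groups. The ribosomal RNA part was higher in somatostatin-only than in insulin-only wells by 23.5 percentage points among wells from 1000 to under 2000 UMIs (4 of 4 plates), by 16.9 among those from 2000 to under 4000 (4 of 4) and by 5.10 among those from 4000 to under 8000 (2 of 2). The somatostatin-only part was 71.1% in the deepest of these bins and 78.2% to 79.1% in the other 2. The smallest plate difference was 1.87 points, in the shallowest of the 3 bins.

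The 2 ribosomal RNAs also kept different proportions to each other. There were 0.306 ± 0.046 mt-Rnr1 UMIs for each mt-Rnr2 UMI in somatostatin-only wells, 0.219 ± 0.028 in insulin-only and 0.222 ± 0.034 in glucagon-only wells (SD, n = 6 plates). Somatostatin-only wells were above insulin-only wells on 6 of 6 plates. Plate ppx 3 stood apart in this ratio, at 0.271 in insulin-only wells against 0.195 to 0.222 on the other 5 plates. It also held 8 wells in which mt-Rnr1 made up over 40% of the ribosomal RNA UMIs (41.5% to 48.8%, among wells with at least 100 such UMIs), and the other plates held 0. These 8 wells had 2535 to 12729 UMIs and mitochondrial shares of 5.36% to 23.6%.

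Tests of single members were made on UMIs summed per plate and group, with the plate as a block, by edgeR's quasi-likelihood test across all genes and Benjamini-Hochberg adjustment at 0.05. Fold changes are log2 values with their SE. Between somatostatin-only and insulin-only wells, 14 of the 37 members passed the filter on low counts. Of these, 1 was higher and 8 were lower in somatostatin-only wells. Over all 3652 genes tested, 22.8% were called, 9.72% higher and 13.1% lower. Filters and hormone makeup differ between groups, so the members are described by their own values.

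The member that rose was mt-Rnr1. In CPM (its UMIs scaled to a fixed total for each plate and group) it stood at 19849, 19968 and 19140 for sham and 23605, 17944 and 23769 for ppx in somatostatin-only wells. In insulin-only wells it stood at 10870, 9051 and 9644 for sham and at 10282, 10918 and 17159 for ppx. The groups did not overlap, and the log2 difference was 0.76 ± 0.19 (adjusted p = 0.000732, edgeR, higher on 6 of 6 plates). Without the low-count filter it was 0.39 with an adjusted p of 0.356.

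mt-Rnr2 was higher in CPM on 5 of 6 plates (68302 ± 7778 against 51336 ± 7603, SD), but the scaled difference of 0.28 ± 0.21 did not pass the test (adjusted p = 0.400, edgeR).

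Complex I messenger RNAs fell in somatostatin-only wells. mt-Nd2, a membrane-arm subunit, stood at 2308, 2543 and 1622 CPM (sham) and 2643, 2385 and 1682 (ppx), against 2929, 3465 and 3014 (sham) and 3008, 3285 and 2950 (ppx) in insulin-only wells. The groups did not overlap, and the log2 difference was -0.65 ± 0.14 (adjusted p = 8.21e-05, edgeR). mt-Nd1, mt-Nd4 and mt-Nd5, other membrane-arm subunits, differed by -0.62, -0.55 and -0.62 and were lower on 6 of 6 plates with no overlap (edgeR, adjusted p 0.00221, 0.0101 and 0.000134). Immediate early and dissociation genes, which cells switch on when tissue is taken apart, moved as well: of 18 tested, edgeR called 13 higher and 1 lower in somatostatin-only than in insulin-only wells, with a median of 0.85. Their part in the members' differences was not tested.

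mt-Cytb, the cytochrome b of complex III, differed by -0.49 ± 0.18 (adjusted p = 0.0323, edgeR) and was lower on 5 of 6 plates. The transfer RNA rows mt-Tt, mt-Ti and mt-Tl1 differed by -0.53, -1.0 and -0.72 and were called lower. mt-Co1, the catalytic subunit of complex IV, had -0.21 ± 0.13 and was not called by edgeR (adjusted p = 0.287), nor were mt-Co2 (-0.38), mt-Atp6 (-0.44) and mt-Tp (0.96).

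Scaling mattered for the size of these differences. Without TMM scaling the median of all genes moved from -0.04 to 0.16, and the split of the calls over all genes from 355 higher and 478 lower to 499 higher and 307 lower. Then 2 members were higher, mt-Rnr1 (0.94) among them, and 3 were lower, mt-Nd2 (-0.47), mt-Nd5 (-0.44) and mt-Ti (-0.78). mt-Cytb had -0.31 (edgeR, adjusted p = 0.275), and none of the 10 members with at least 1000 UMIs changed direction in that fit.

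Between glucagon-only and insulin-only wells, 13 members were tested, 6 were lower and 0 higher (edgeR; 6 of 13 at an unadjusted p under 0.05, and 6 lower and 0 higher by DESeq2). Of 2230 genes tested, 42.6% were called, 20.3% higher and 22.3% lower. Both ribosomal RNAs fell in glucagon-only wells. mt-Rnr2 stood at 28377, 28875 and 29226 CPM for sham and 32358, 32358 and 26967 for ppx, against 53179, 45433 and 43703 (sham) and 46331, 55939 and 63429 (ppx) in insulin-only wells. The difference was -0.64 ± 0.17 (adjusted p = 0.0017, edgeR), with no overlap.

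mt-Rnr1 differed by -0.62 ± 0.13 (edgeR, adjusted p = 0.000123). mt-Cytb (-0.44), mt-Nd4 (-0.37), mt-Co1 (-0.34) and mt-Tt (-0.53) were also called lower. The complex I rows mt-Nd1, mt-Nd2 and mt-Nd5 were not called, with differences of -0.14, -0.13 and -0.09. With the hormone thresholds doubled, mt-Nd4 (-0.26) and mt-Co1 (-0.22) were no longer called (edgeR, adjusted p 0.150 for both), nor was mt-Nd4 without sham plate 1 (adjusted p = 0.0625). Without the low-count filter mt-Nd1, mt-Nd2 and mt-Nd5 were called lower too, at -0.54, -0.52 and -0.48. Of 18 tested immediate early and dissociation genes, 12 were called higher and 1 lower in glucagon-only wells, with a median of 1.21, and their part was not tested here either. As a part of the mitochondrial UMIs these 3 rows were higher in glucagon-only wells on 6 of 6 plates, mt-Nd1 with 9.16% against 7.10%, and mt-Nd2 with 4.23% against 3.28%.

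Glucagon-only against somatostatin-only wells gave the widest gap in ribosomal RNA. Of 9 members tested, 3 were lower and 2 higher, and of 683 genes 35.9% were called, 18.7% higher and 17.1% lower. mt-Rnr1 differed by -1.64 ± 0.17 (adjusted p = 5.29e-09, edgeR) and mt-Rnr2 by -1.18 ± 0.21 (adjusted p = 7.04e-05), each lower on 6 of 6 plates without overlap. mt-Co1 differed by -0.37 ± 0.11 (adjusted p = 0.0126, edgeR). It was not called by DESeq2, without the low-count filter, with the thresholds doubled, or without sham plate 3, ppx plate 2 or ppx plate 3 (adjusted p 0.109, 0.961, 0.257, 0.067, 0.079 and 0.094). mt-Nd2 and mt-Nd5 were higher by 0.27 ± 0.10 and 0.31 ± 0.11, but DESeq2 and the fits without TMM scaling, without the plate block and without the low-count filter called 0 members higher. Without TMM scaling mt-Nd2 had 0.12 and mt-Nd5 0.14, while the median of all genes moved from -0.06 to -0.23. The 3 comparisons share their wells, so they are not independent of each other.

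**Figure D4:**
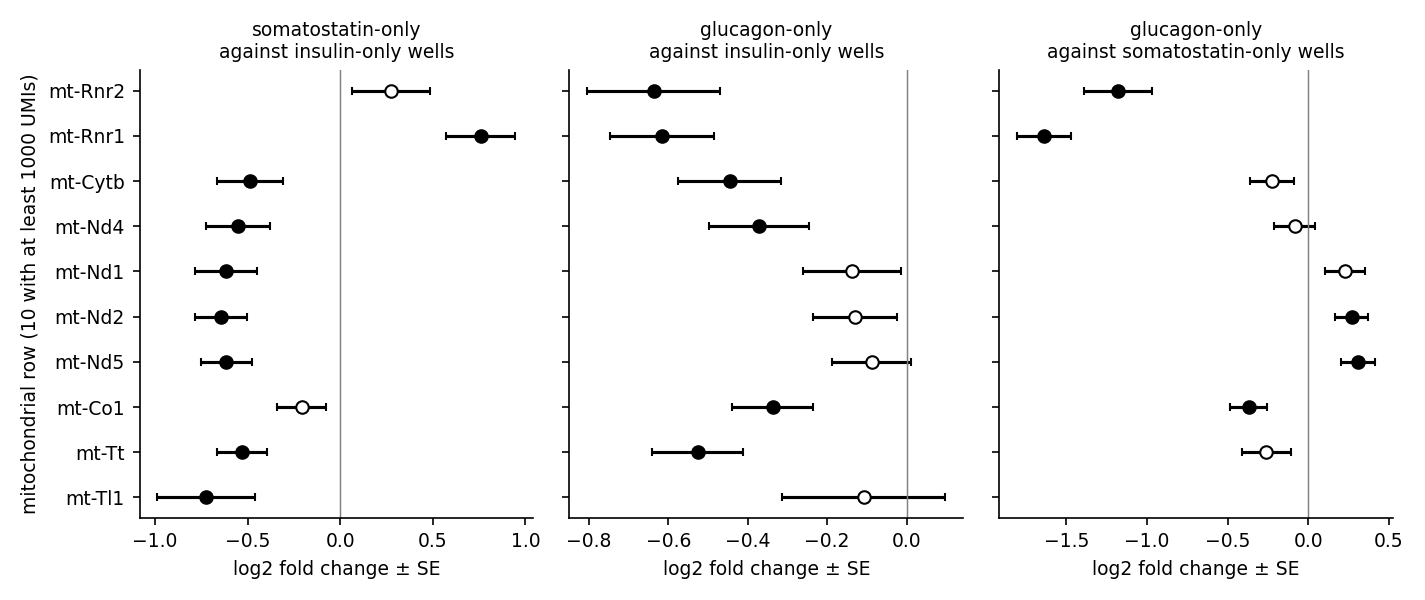
Log2 fold changes with SE for the members with at least 1000 UMIs in the 3 comparisons of hormone groups, with filled points for adjusted p under 0.05 and a separate horizontal scale for each panel. mt-Rnr1 lies at 0.76, -0.62 and -1.64 from left to right, and mt-Nd2 at -0.65, -0.13 and 0.27.

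Nuclear genes of the same organelle did not move as a block with these rows. Of 35 listed nuclear subunits of oxidative phosphorylation, 33 were tested between somatostatin-only and insulin-only wells. Of the 33, 5 fell and 1 rose, with a median of -0.14, where 22.8% of all genes tested were called. Among these, Cox5a of complex IV fell by 1.14 on the log2 scale and Uqcrfs1 of complex III rose by 0.61 (edgeR, adjusted p 0.00323 and 0.0309). Between glucagon-only and insulin-only wells 30 were tested, 3 rose and 4 fell with a median of -0.01, where 42.6% of all genes tested were called. Those that rose or fell included Cox5a (-0.89) and Atp5e of ATP synthase (0.72).

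The genes that make and handle mitochondrial RNA were mostly too low to test. Of 18 listed genes for mitochondrial transcription and replication, 2 were tested between somatostatin-only and insulin-only wells and 0 called by edgeR (Tfam 0.06 ± 0.37, adjusted p = 0.936). Of 22 genes for RNA processing and stability, 3 were tested and 0 called. Slirp, whose product stabilises mitochondrial messenger RNA, rose in glucagon-only against insulin-only wells by 0.68 ± 0.28 (adjusted p = 0.0432, edgeR). Of 19 genes for mitochondrial quality control and stress, 17 were tested between somatostatin-only and insulin-only wells. Of the 17, 5 fell and 1 rose, where 22.8% of all genes tested were called. The stress-response factor Atf5 had -3.93 and the inner-membrane carrier Ucp2 1.44.

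The operation did not separate the plates in mitochondrial share. In insulin-only wells the mean of plate medians was 9.66% ± 1.42 for ppx and 8.67% ± 0.446 for sham (SD, n = 3 plates each), and the plates overlapped. Somatostatin-only wells had 12.3% ± 1.38 against 11.3% ± 0.308, glucagon-only wells 6.03% ± 0.811 against 5.81% ± 0.405, and hormone-low wells 15.5% ± 2.31 against 12.6% ± 3.13, each with overlap.

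No member was called between ppx and sham in any of the 3 groups tested by edgeR. In insulin-only wells 0 of 18 members were called, with 3 at an unadjusted p under 0.05 (mt-Rnr1 0.34 ± 0.15, mt-Tl1 0.38 ± 0.16 and mt-Tp 0.63 ± 0.28), and DESeq2 called 0, with 0 at an unadjusted p under 0.05. Over all 8297 genes 0.325% were called, 0.229% higher. Without ppx plate 3 the mt-Rnr1 difference was 0.11. In somatostatin-only wells 0 of 9 members were called by edgeR or DESeq2 (0 at an unadjusted p under 0.05 by either), where 0.108% of 927 genes were called. In glucagon-only wells it was 0 of 9 by both tools, with 1 at an unadjusted p under 0.05 by edgeR (mt-Tt -0.54 ± 0.24) and 0 by DESeq2, where 1.17% of 683 genes were called, 0.732% higher. With 3 plates a side these fits leave room for differences of the size of their SE and larger. The SE ran from 0.13 to 0.50 in insulin-only wells.

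The ribosomal RNA part of the mitochondrial UMIs lay apart between the operations in 2 of 3 groups. In somatostatin-only wells it was 76.0%, 77.3% and 77.8% for sham and 78.0%, 79.5% and 79.0% for ppx (0.108% of genes called in this comparison). In glucagon-only wells it was 58.7%, 57.2% and 57.0% for sham and 59.9%, 61.0% and 64.6% for ppx (1.17% of genes called). Gamma cell markers moved with it: both tested, Ppy (1.90 ± 0.37) and Pyy (1.41 ± 0.28), were called higher in glucagon-only wells of ppx plates (edgeR, adjusted p = 0.029 for each). The 2 tested delta markers went opposite ways there. Rbp4 was called lower (-0.90 ± 0.22, edgeR, adjusted p = 0.0499), and the other was above 0 and not called. In somatostatin-only wells Ppy had 1.11 ± 0.34 and was not called (adjusted p = 0.392). The part of these cell types in the difference was not tested. The plates of the 2 operations did not overlap in these groups. In insulin-only wells they did, at 66.0%, 62.1% and 62.9% for sham and 64.2%, 64.8% and 69.9% for ppx. The somatostatin-only ranges met when the wells above 20% were left out or the hormone thresholds were halved, and the glucagon-only ranges met when the thresholds were doubled. The insulin-only ranges came apart without sham plate 1 (difference 3.83 percentage points in place of 2.65), and the difference was 0.871 without ppx plate 3. The part is a sum over members and was given no test. Among the nuclear genes, 0 of 34 tested oxidative phosphorylation genes and 0 of 22 tested mitochondrial ribosomal protein genes were called in insulin-only wells by edgeR, with 29 of the 34 above 0 and a median of 0.15, against a median of -0.00 over all genes.

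Wells with a mitochondrial share above 20% numbered 93 of 2208. Of these, 79 lay between 20% and 30%, 6 between 30% and 50% and 8 above 50%. The wells nearest the threshold had 19.949%, 19.987% and 19.995% under it and 20.039%, 20.113% and 20.12% above it. The plates held 15, 10 and 10 such wells for sham (4.05%, 2.75% and 2.87% of the wells) and 21, 10 and 27 for ppx (5.57%, 2.69% and 7.16%), and the operations overlapped.

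Hormone groups contributed unequally. The 93 wells comprised 41 insulin-only wells (3.90% of that group), 25 somatostatin-only (4.44%), 19 hormone-low (15.1%) and 8 with more than 1 hormone. There were 0 of 155 glucagon-only wells, which allows a share of up to 1.94%, and 0 of 61 Ppy wells, which allows up to 4.92% (3 wells over the group, for counting error only). Depth mattered as well. Of 159 wells under 1000 UMIs, 27 were above 20%, and of 127 wells with 8000 or more, 0 were, which allows up to 2.36%.

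**Figure D5:**
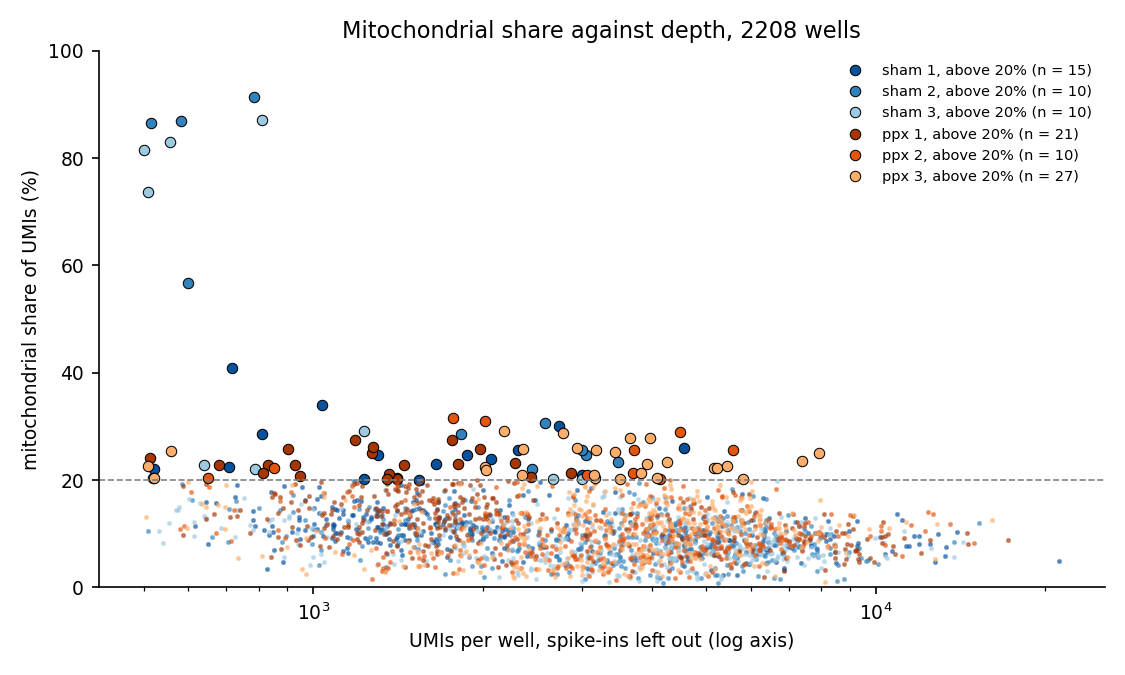
Mitochondrial share (vertical axis, %) against UMIs per well (horizontal log axis) for the 2208 wells, coloured by plate, with outlined points above 20%. The 8 wells above 50% all lie under 1000 UMIs and belong to sham plates 2 and 3, and the others above 20% run from 508 to 7922 UMIs.

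The 85 wells between 20% and 50% held more mitochondrial and fewer other UMIs, a pattern that choosing wells by this share favours in advance. Their median was 521 mitochondrial UMIs against 280 in the 2115 wells at or under 20%, and 1575 other UMIs against 3106. Hormone-low wells made up 20.4% of the wells above 20% and 5.71% of all wells, so these medians mix the groups unequally. In insulin-only wells above 20% the medians were 788 mitochondrial and 2420 other UMIs, against 400.5 and 3842 in the insulin-only wells at or under 20%. Somatostatin-only wells showed 294 and 982 against 195 and 1389. Hormone-low wells above 20% differed in that both were higher, with 321 and 983 against 108 and 865. The median number of mitochondrial UMIs was higher, and that of other UMIs lower, in the wells above 20% on 6 of 6 plates.

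Summed over plates, the wells above 20% of a group held a somewhat larger ribosomal RNA part. Ribosomal RNA took 67.9% of mitochondrial UMIs in insulin-only wells above 20% and 65.5% in the others, 79.8% and 77.1% in somatostatin-only wells, and 78.2% and 73.9% in hormone-low wells. These are sums over the wells of all plates and were not tested. Of the insulin-only wells above 20%, 21 of 41 came from ppx plate 3, and of the somatostatin-only ones 17 of 25 from ppx plate 1. With all groups together, the part was higher in wells above 20% on sham plate 1 (76.3% against 70.6%) and ppx plates 1 (80.1%, 71.6%) and 3 (72.2%, 70.0%). It was lower on sham plates 2 (63.3%, 64.7%) and 3 (62.4%, 63.5%) and ppx plate 2 (65.0%, 65.2%).

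The 8 wells above 50% were unlike the others. They held 501 to 812 UMIs, of which only 68 to 259 were not mitochondrial, so that 6 of the 8 counted as having more than 1 of the hormones on a handful of molecules. Insulin as a part of their other UMIs ran from 8.82% to 17.9%. They came 4 each from sham plates 2 and 3, the plates with the most wells under 500 UMIs (21 and 35).

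Nuclear genes were compared between the wells above 20% and the rest of the same plate, with mt- rows taken out and the plate as a block. edgeR called 34 of 6679 genes (0.509%), 7 higher and 27 lower, and 17 of them moved the same way on 6 of 6 plates, each of these lower. The median of all genes was -0.38, and 157703 UMIs stood against 7344456 in the other wells. The genes that fell were led in edgeR by Gcg (-4.34 ± 0.41, adjusted p = 6.91e-23) and Ppy (-3.20 ± 0.40, adjusted p = 2.43e-12). No glucagon-only or Ppy wells were among the 93, which did hold 3 wells with insulin and glucagon and 3 with somatostatin as well. Gcg stood at 343 to 6126 CPM of non-mitochondrial UMIs in the wells above 20% and at 9539 to 62239 in the others, lower on each plate. Of the marker lists, 4 of 6 tested alpha, 3 of 4 delta and 2 of 3 gamma markers were called lower, and 0 of 11 beta markers. The beta markers still leaned the same way, with 0 of 11 above 0 and a median of -0.81, against -0.38 over all genes. Ttr (-2.17), Gc (-1.72) and Gpx3 (-2.20), of which the first pair are alpha markers, were also lower, as were E130111B04Rik (-2.97), Lpl, the lipoprotein lipase (-2.22), Dapl1 (-1.78), 5330417C22Rik (-1.63), the reticulum stress factor Manf (-1.40), Sez6l2 (-1.36) and the prohormone convertase Pcsk2 (-1.31).

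The 7 genes called higher were Rgs5 (3.17), Nfib (2.91), Spp1 (2.63), Sparc (2.05), Nrp1 (1.93), Apoe (1.78) and Dbi (1.46), none of them higher on each of the 6 plates, and they are named here after their values were seen. Rgs5 and Sparc are stromal and Spp1 is a duct marker. Of the 8 listed stromal markers 2 were tested and both were called higher, of 8 duct markers 5 were tested and 1 called, and of 8 endothelial markers 5 were tested and 0 called (edgeR; Plvap 1.71 ± 0.55, adjusted p = 0.123). The Spp1 molecules in these wells came mostly from the hormone-low wells among them (276 of 279), as did those of Apoe (162 of 167), Sparc (46 of 48) and Rgs5 (31 of 41). Without the hormone-low wells 0 genes were called higher and 26 lower.

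Within insulin-only wells alone, edgeR called 1 of 5476 genes, Ppy at -1.72 ± 0.33 (adjusted p = 0.000741). When each well above 20% was set against the well of the same plate and hormone group nearest in non-mitochondrial UMIs, 2 of 194 genes were called, both higher: Gm28437 (1.43 ± 0.29) and Gm29216 (1.39 ± 0.30), each with an adjusted p of 0.0255. These are the chromosome 1 copies of mt-Co3 and mt-Co1 whose sequences are printed above, so they cannot be told apart from the mitochondrial rows that chose the wells. Gcg had -1.15 (edgeR, adjusted p = 0.193) in that comparison. Of the nuclear lists, 0 of 34 tested oxidative phosphorylation genes, 0 of 22 mitochondrial ribosomal protein genes, 0 of 18 quality control genes and 0 of 18 immediate early genes were called between wells above 20% and the rest by edgeR. Over all genes only 0.509% were called, so counts of 0 say little. In the same order 2, 6, 3 and 1 genes lay above 0, with medians of -0.33, -0.28, -0.52 and -0.66. The median of all genes, given above, was also negative.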

How the data were processed

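The values are raw UMI counts, deposited by the authors as whole numbers in a table for each plate, with a column for each well. Reads were aligned with HISAT 0.1.6 to mm10, per the submitters' processing notes; which tool and annotation produced the counts is not stated there. The mt- rows and the lists of other genes were chosen with earlier results of these data known.

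Wells with at least 500 UMIs outside the 92 ERCC spike-in rows, which held 3 UMIs, were used, and 96 wells fell under this. A plate entered a group with at least 5 wells. Wells of a plate and hormone group were summed, genes low in these sums were filtered out, and edgeR 4.0.16 (R 4.3.3, TMM scaling, quasi-likelihood test, Benjamini-Hochberg threshold 0.05) was fitted across all genes with the plate as a block between hormone groups, and without a block between operations. Plates held 1250861 to 1508513 UMIs, and groups of few wells have less precise sums. Shares were summarised as plate medians and given no test. Fits were tested on simulated data. The mixed plate was not split by tomato status.

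Alternatives were DESeq2 1.42.0, other filters, scalings, hormone thresholds, depth minimums, covariates and single plates left out. Those on wells above 50% and on the ribosomal RNA part were chosen after seeing the data. All mt- rows were named by kind. For wells above 20% the text names up to 12 called genes per direction with the largest changes, the same direction on every plate and at least 10 UMIs on each side, and of each list the called members or otherwise the 3 smallest p-values. Copies of mt- genes were found with blastn 2.17.0 among GENCODE M21 transcripts at 95% identity or more over at least 50 bases. Python 3.11.15, pandas 2.3.3 and matplotlib 3.10.9 were used.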

Additional observations from a re-analysis of the deposited data

Results flagged for a closer look

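The 96 wells under 500 UMIs, which enter no comparison, held a high mitochondrial share on 4 of the 6 plates. Their median share was 62.6% in 35 wells of sham plate 3 and 21.4% in 21 wells of sham plate 2, against 8.29% and 8.75% in the wells used from these plates. On ppx plate 2 it was 17.2% (12 wells) and on ppx plate 3 20.5% (7 wells), against 9.42% and 11.1%. The tomato-positive plates did not show this, with 5.72% in 14 wells of sham plate 1 and 9.24% in 7 wells of ppx plate 1. The median depth of these wells was 39 to 272 UMIs by plate, so single values are imprecise.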

How the results depend on the processing

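Without mt-Rnr1 and mt-Rnr2 the share difference of somatostatin-only minus insulin-only wells reversed to -0.68 percentage points. The others became -0.72 (glucagon-only minus insulin-only), -0.039 (glucagon-only minus somatostatin-only), 0.37 (hormone-low minus insulin-only), 0.35 (ppx minus sham, all wells) and -0.14 (ppx minus sham, somatostatin-only). With single plates left out, the first 4 differences with these rows ran over 2.06 to 2.92, -3.60 to -2.71, -6.07 to -5.64 and 4.19 to 5.43. The operation differences in share moved more, over 1.07 to 2.33 in all wells, 0.27 (without ppx plate 3) to 1.69 in insulin-only, 0.31 (without ppx plate 1) to 1.69 in somatostatin-only and -0.17 to 0.64 in glucagon-only wells, where the sign changed without ppx plate 1 or sham plate 1.

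Genes called between operations in insulin-only wells numbered 27, and 11 with DESeq2, 64 without the low-count filter, 56 and 14 with thresholds halved and doubled, 8 with tomato status as a covariate and the mixed plate (sham plate 2) left out (16 without that plate alone), and 13 to 49 with single plates left out (13 without ppx plate 3, 49 without ppx plate 1). In somatostatin-only wells 1 gene was called, and 2 without the filter, 3 with the covariate on the same 5 plates (2 without the mixed plate alone) and 1 to 10 with single plates left out. In glucagon-only wells 8 were called, and 1 with DESeq2 or doubled thresholds, 4 with library sizes free of mt- rows, 0 without TMM, 3 with the covariate on the same 5 plates (1 without the mixed plate alone) and 0 to 8 with single plates left out. No member was called in any of these fits.

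With the replicate number as a block, 29, 2 and 2 genes were called in the 3 groups and 0 members. The correlation of same-numbered plates was -0.011 to 0.0863, and that of differently numbered plates -0.0792 to 0.0558. The values were centred within the 3 plates of each operation, so they cannot decide whether the number pairs plates. Both plates numbered 1 were tomato-positive and both numbered 3 were tomato-negative.

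Between somatostatin-only and insulin-only wells, 1300 genes were called without the plate block (833 with it). Members called higher numbered 0 without the filter and 2 without TMM or without the block, members lower 3 without TMM, and with single plates left out 1 to 2 higher and 6 to 7 lower. Glucagon-only against insulin-only wells gave 1674 genes without the filter (951 with it), and its members lower (6) numbered 9 without the filter, 4 with doubled thresholds and 5 to 6 with single plates left out. Glucagon-only against somatostatin-only wells gave 0 members higher with DESeq2, without the filter, without TMM or without the block, and 0 to 3 with single plates left out. Its members lower (3) numbered 2 with DESeq2, without the filter or with doubled thresholds, 4 without TMM, and 2 to 3 with single plates left out.

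Nuclear genes called in wells above 20% (34) numbered 18 with DESeq2, 160 without the filter, 20 at 1000 UMIs per well, 69 at a limit of 15%, 1 within insulin-only wells (1 and 0 with thresholds halved and doubled), 15 and 13 without hormone-low wells at halved and doubled thresholds, 2 after matching, and 14 to 102 with single plates left out (14 without sham plate 1, 102 without ppx plate 3). A limit of 30% could not be fitted. The causes of these changes were not tested. Depth limits the rarer rows, of which 9 held under 100 UMIs and 10 held 0.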
